A study of Arabidopsis thaliana with 2 samples.

Results

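*YUC2*, *YUC4*, *YUC6* and *YUC11* are 4 of the 11 *YUCCA* (*YUC*) genes that RefSeq names in *Arabidopsis*, and they are those whose probe sets carry a *YUC* name in the annotation of the Affymetrix ATH1 array used here. They were chosen by name from 13350 genes that have a probe set of their own, and each is measured by 1 probe set. The other 7 *YUC* genes were not analysed here. YUC proteins are flavin monooxygenases that convert indole-3-pyruvate, made from tryptophan by the TAA1 family of aminotransferases, into the auxin indole-3-acetic acid, and this is the main route of auxin synthesis in the plant. In leaves, auxin made locally and carried by PIN proteins guides the outgrowth of serrations and the course of veins, and *YUC1*, *YUC2* and *YUC4* are known for roles at the leaf margin.

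RNA came from leaf margins of plants that express both *35S:miR319a*, which reduces *CIN-TCP* transcripts, and *35S:amiR-NGA*, an artificial microRNA against the *NGATHA* (*NGA*) genes. Both transgenes are driven by the constitutive 35S promoter, so they are not restricted to the margin. The labels give the Ler ecotype, mature leaves, 23°C and 16 h light, while the genotype and the use of older leaves come from the study's methods. There were 2 biological replicates of this 1 group, 1 array each, with no wild-type margin and no other tissue, so the design allows no test of the genotype's effect on a *YUC* gene, and p-values are absent.

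Each array reports 1 MAS5 signal per probe set, an intensity on a linear scale, and both arrays have a median of 50 over 22810 probe sets. The table holds no detection calls, so a background bound was set in each array from 6 genes known from pollen, anthers or roots (their 95th percentile), at 7.21 for replicate 1 and 18.3 for replicate 2. The annotation used leaves 8794 of these probe sets without a gene name, so a listed gene with no named probe set was not analysed here, whether or not the array holds it. Of 9 listed markers of lamina growth 3 had a named probe set, and these, *YAB3*, *YAB5* and *JAG*, lay between 121.2 and 503.2 in replicate 1 and between 54.7 and 387.9 in replicate 2. The mesophyll markers *RCA* and *LHCB4.1* were at or above 1996 in both arrays, whereas the shoot meristem markers *CLV3* and *UFO* were below the bound in both. All 4 pollen and anther markers were below it too. They are among the 6 genes that set the bound, so their place under it says nothing about the tissue. Of the root markers, *EXPA7* was below the bound in both and *EXPA18*, the brightest of the genes that set it, was at 8.42 and 20.4. The 4 epidermal markers listed had no named probe set and were not analysed here. Of the genes targeted by *35S:amiR-NGA*, *NGA2* had a signal of 98.7 and 92.6, *NGA1* one of 29.5 and 21.5, *NGA4* one of 11.2 and 23.2 and *NGA3* one of 28.7 and 5.14 (replicates 1 and 2), which without a wild-type margin does not measure the knockdown. In dissected tissue, fewer cells that express a gene and less RNA per cell cannot be told apart.

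Transcripts of *YUC2*, *YUC4* and *YUC6* gave signals above this bound in the indeterminate margins, and that of *YUC11* did not. With a stricter bound, set from control probe sets for *B. subtilis* genes, none of the 4 was above it in both arrays, where 38.5% of all genes were. *YUC2*, *YUC4* and *YUC6* exceeded that bound in replicate 1 alone. Under the bound from the 6 genes, 3 of the 4 genes exceeded the bound in both arrays, where 60.1% of all 13350 genes did so, and 1 of the 4 was below it in both, where 28.7% of all genes were. The median of the mean signals of the 4 genes was 62.0, and it was 35.9 over all genes. *YUC2*, *YUC4* and *YUC6* were at 2.96 to 11.9 times the bound of their array.

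**Figure D1:**
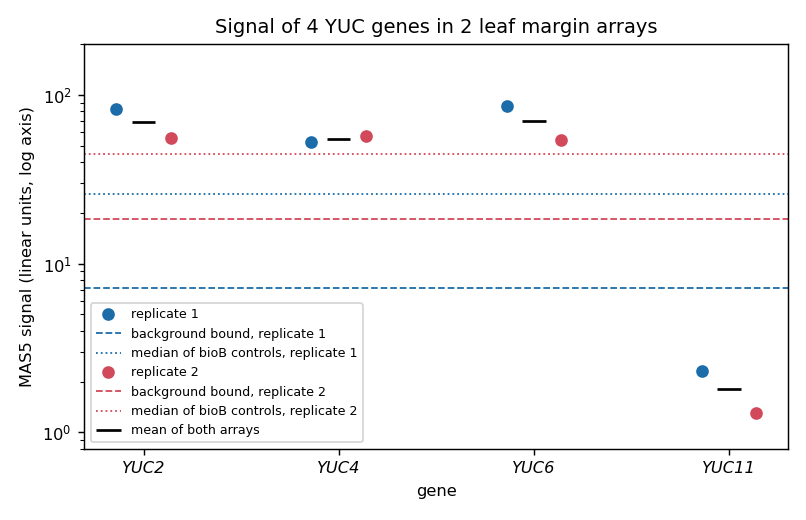
MAS5 signal (log axis) of each *YUC* gene in each array, 1 point per array, with the mean of both arrays as a black bar, the background bound of each array as a dashed line and the median of the bioB control probe sets as a dotted line. *YUC2*, *YUC4* and *YUC6* lie above all 4 lines in both arrays, between 52.5 and 86.0, and *YUC11* lies below all of them, at 2.30 and 1.30.

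*YUC4* (AT5G11320, probe set 250389_at), which acts with *YUC1* in the formation of leaves, flowers and veins, had a signal of 52.5 in replicate 1 and 57.1 in replicate 2. Its mean was 54.8 ± 3.25 (SD, n = 2 arrays), and the replicates differed by 0.12 on the log2 scale. Of all probe sets with 1 gene, 87.8% differed more between the arrays, so *YUC4* is among the more even signals of this pair of arrays. It ranked 5856 of 13513 such probe sets in replicate 1 and 5681 in replicate 2, counted from the brightest, which are percentiles 56.7 and 58.0.

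*YUC2* (AT4G13260, 254758_at), known from the leaf margin and, with *YUC6*, from stamen development, had a signal of 82.7 in replicate 1 and 55.7 in replicate 2. The mean was 69.2 ± 19.1 (SD, n = 2), with a log2 ratio of replicate 2 over replicate 1 of -0.57. *YUC2* ranked 4714 in replicate 1 and 5744 in replicate 2, at percentiles 65.1 and 57.5. Both signal and rank were thus lower in replicate 2.

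*YUC6* (AT5G25620, 246900_at), a gene best known for stamen development and for the auxin excess of its activation mutant, gave signals close to those of *YUC2*. It was at 86.0 in replicate 1 and 54.3 in replicate 2, with a mean of 70.1 ± 22.4 (SD, n = 2) and a log2 ratio of -0.66. Its ranks were 4599 and 5801, at percentiles 66.0 and 57.1.

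*YUC11* (AT1G21430, 260901_at), which acts with other *YUC* genes in the embryo, was the dimmest of the 4 in both arrays. Its signal was 2.30 in replicate 1 and 1.30 in replicate 2, with a mean of 1.80 ± 0.710 (SD, n = 2). The 6 genes that set the bound had signals of 0.174 to 8.42 on the array of replicate 1 and of 0.796 to 20.4 on that of replicate 2, so *YUC11* fell inside both ranges. *YUC11* ranked 11457 and 12584 of 13513, at percentiles 15.2 and 6.88. With a signal under the bound in both arrays, a low level of *YUC11* transcript was not detectable here, and the difference between the replicates has no firm size. When any signal under 18.3 was raised to that value, its log2 ratio became 0.

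**Figure D2:**
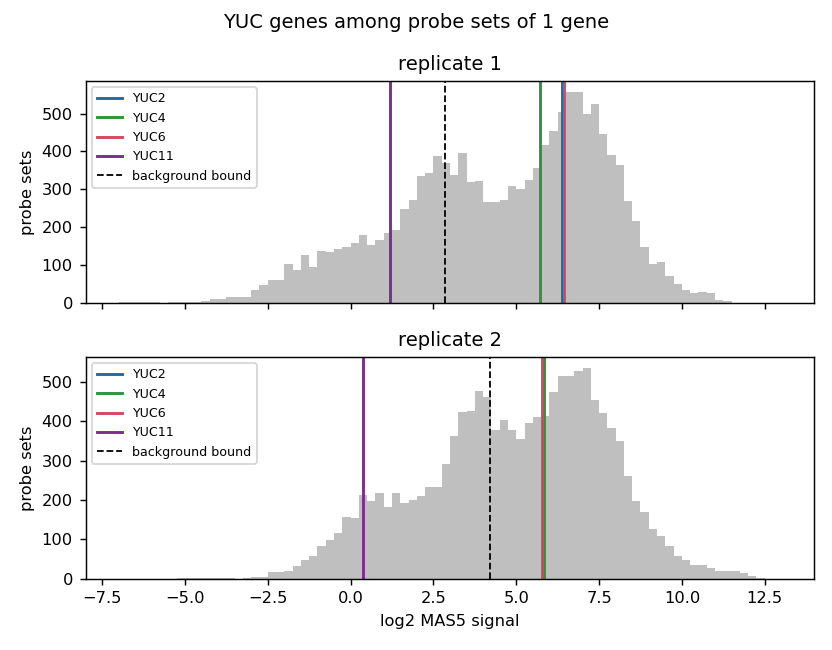
Distribution of log2 MAS5 signals over the 13513 probe sets with 1 gene (bars, number of probe sets) in replicate 1 (upper panel) and replicate 2 (lower panel), with each *YUC* gene as a coloured line and the background bound as a dashed line. *YUC2*, *YUC4* and *YUC6* fall at percentiles 56.7 to 66.0 in replicate 1 and crowd at 57.1 to 58.0 in replicate 2, where their lines nearly coincide, and *YUC11* lies left of the bound in both panels.

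The order of the 3 brighter signals was opposite in the replicates. In replicate 1 *YUC6* was the brightest, then *YUC2*, then *YUC4*, whereas in replicate 2 *YUC4* was the brightest, then *YUC2*, then *YUC6*. In replicate 1 the highest of the 3 was 1.64 times the lowest, and in replicate 2 it was 1.05 times the lowest. The widest gap between their means, *YUC4* minus *YUC6*, was -15.4 signal units. In size it is smaller than the SD of *YUC6* over the arrays, 22.4, and larger than that of *YUC4*, 3.25. SDs of 2 arrays cannot show whether these signals differ. *YUC11*, below the bound in both arrays, has no place in this order beyond being the dimmest, and the size of its gap to the others is not firm. Probe sets differ in brightness for equal amounts of transcript, so this is an order of signals, and it does not rank the transcripts of different genes.

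*YUC2* and *YUC6* had nearly the same pair of signals, at a distance of 0.068 over the log2 signals of both arrays. Only 12 other genes lay closer to *YUC2* than *YUC6* did. *YUC4* lay 0.66 from *YUC2* and 0.72 from *YUC6*, with 975 genes closer to *YUC2* in the first case. By the same distance, the genes nearest to *YUC2* were AT1G06840, AT5G47420 and AT1G60670, and those nearest to *YUC6* were AT5G47420, AT3G23660 and AT1G30300, so AT5G47420 was near both. The genes nearest to *YUC4* were AT1G67570, AT1G23790 and AT1G13000. These distances rest on 2 arrays and ranged from 0.018 to 0.050 for the genes named. They compare signal levels within 1 group, so they do not show that genes vary together. No such genes are given for *YUC11*, whose signals were below the bound.

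Between the replicates, *YUC2*, *YUC6* and *YUC11* were lower in replicate 2 and *YUC4* was slightly higher. Of all 13350 genes, 35.8% were likewise lower there, with a median log2 ratio of 0.28 over all of them. In the signals as deposited, none of the 4 genes differed 2-fold between the arrays, as 27.7% of all genes did. Among the 8027 genes above the bound in both arrays, to which *YUC2*, *YUC4* and *YUC6* belong, 11.3% did. Over the probe sets above the bound the SD of this ratio was 0.68, and the median over the genes above it was 0.15. The log2 ratios of *YUC2* and *YUC6* lay within that SD of 0, but not within that SD of this median. Quantile normalization brought the median log2 ratio of all genes to 0.071 and the share lower in replicate 2 to 46.0%. On that scale the same 3 of the 4 *YUC* genes were lower in replicate 2, with log2 ratios of -0.54 for *YUC2*, -0.63 for *YUC6*, -1.48 for *YUC11* and 0.14 for *YUC4*. There *YUC11*, below the bound, was past 2-fold. The actin control was 1.70 times as bright at its 3′ end as at its 5′ end in replicate 1 and 3.93 times in replicate 2. The same ratio was 2.01 and 2.89 for the ubiquitin control and nearly equal, at 1.496 and 1.499, for the GAPDH control. The part of RNA quality in the differences between replicates was not tested.

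**Figure D3:**
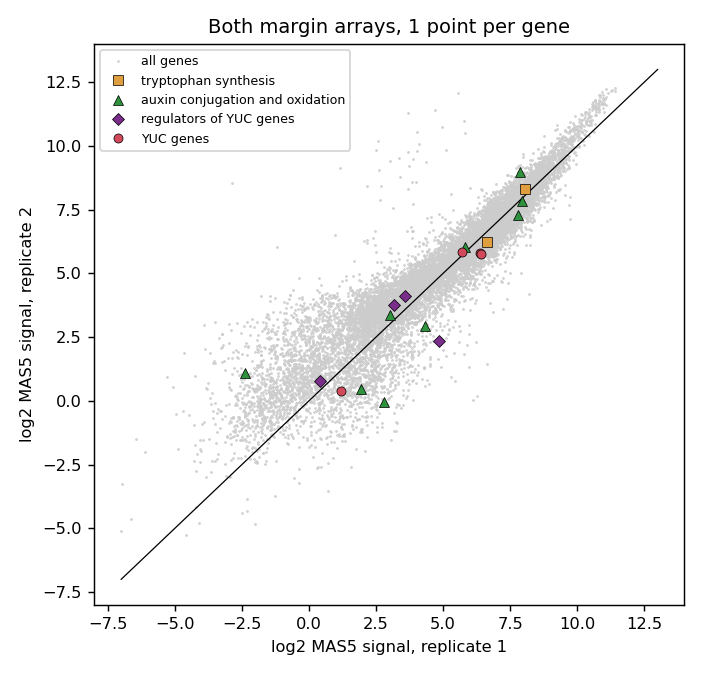
Log2 MAS5 signal in replicate 1 (x axis) and replicate 2 (y axis) for all 13350 genes (grey) and for the genes of 4 lists that have a named probe set (coloured), with the line of equal signal. *YUC2* and *YUC6* overlap a little below the line and *YUC4* lies just above it, while *YUC11* lies low in the part where the replicates scatter widely.

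Control probe sets gave a further scale for the *YUC* signals. The 6 probe sets of the *E. coli* gene bioB, a spiked-in control of low concentration, had signals of 20.1 to 36.9 on the array of replicate 1 and of 32.1 to 58.9 on that of replicate 2. *YUC2*, *YUC4* and *YUC6* were each brighter than all 6 of these in replicate 1 and than 5 of them in replicate 2, and *YUC11* was brighter than none. With the bioB median as the bound 3 of the 4 genes were above it in both arrays, where 45.9% of all genes were. The 27 *B. subtilis* control probe sets put the stricter bound at 27.9 and 69.4, and none of the 4 *YUC* genes was above it in both arrays, against 38.5% of all genes. Each of the 3 brighter *YUC* genes exceeded all 27 of these control probe sets in replicate 1 and 24 of them in replicate 2. The 3′ *B. subtilis* probe sets had a median signal of 13.7 and 30.8, against 2.59 and 2.7 for the 5′ ones, and with the 9 probe sets at the 5′ end alone the bound was 5.82 and 11.3 and again 3 of the 4 genes were above it, where 67.3% of all genes were. The bounds from bioB and from the 5′ probe sets were chosen after the values were seen.

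Upstream of the YUC step, few genes could be named. The 3 genes of the TAA1 family and the 11 listed genes of other indole routes had no named probe set and were not analysed here. Of 12 genes listed for tryptophan synthesis 2 had one, and the annotations used here give these by locus only. AT2G04400 had a signal of 268.4 and 315.7 and AT4G02610 one of 98.8 and 75.1 in replicates 1 and 2, and both were above the bound in both arrays. The 15 genes listed for auxin transport, 7 for release of auxin from conjugates and 6 for other flavin monooxygenases likewise had no named probe set and were not analysed here.

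Genes that inactivate auxin were better covered. Of 9 genes of conjugation and oxidation with a named probe set (of 14 listed) 4 were above the bound in both arrays, 2 in 1 array and 3 in none, against 60.1% of all genes above it in both. Their median mean signal was 13.9. *GH3.3*, which joins auxin to amino acids, had signals of 232.3 and 509.5, and *WES1* (*GH3.5*), of the same family, had 220.3 and 156.3. *UGT74D1*, a glucosyltransferase that acts on auxin, was even at 246.3 and 228.2. AT1G14130, listed here by locus, was at 56.6 and 65.5, where *YUC4* was at 52.5 and 57.1. Of the dimmer genes, *GH3.17*, which forms auxin conjugates with glutamate, was at 20.3 and 7.56 and *GH3.9* at 8.06 and 10.3, each above the bound in replicate 1 alone. *GH3.1* (6.94 and 0.981), the glucosyltransferase gene *UGT84B1* (3.81 and 1.40) and AT1G14120 (0.190 and 2.15) were below the bound in both arrays, as *YUC11* was.

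Of 24 genes listed as regulators of *YUC* genes 4 had a named probe set, and none was above the bound in both arrays, where 60.1% of all genes were. *SPL*, whose product represses *YUC2* and *YUC6*, was below it in both, at 1.35 and 1.72, as 28.7% of all genes were. Any effect of *SPL* on the *YUC* signals was not tested. *SHI*, of the family whose member STY1 activates *YUC4*, was at 9.05 and 13.5, and *IDD16*, whose product promotes auxin synthesis and transport, at 12.1 and 17.4. These were above the bound in replicate 1 alone, as was *NGA3* at 28.7 and 5.14. The count of 0 became 3 with a bound without the root genes, namely 3.28 and 3.89, so these signals lie near the limit of what the arrays resolve. The count also depends on the list, which holds *NGA3*, a target of the artificial microRNA in these plants, but no other *NGA* gene. Outside the list, *NGA1* (29.5 and 21.5), *NGA2* (98.7 and 92.6) and *NGA4* (11.2 and 23.2), targets as well, were above the bound in both arrays.

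**Figure D4:**
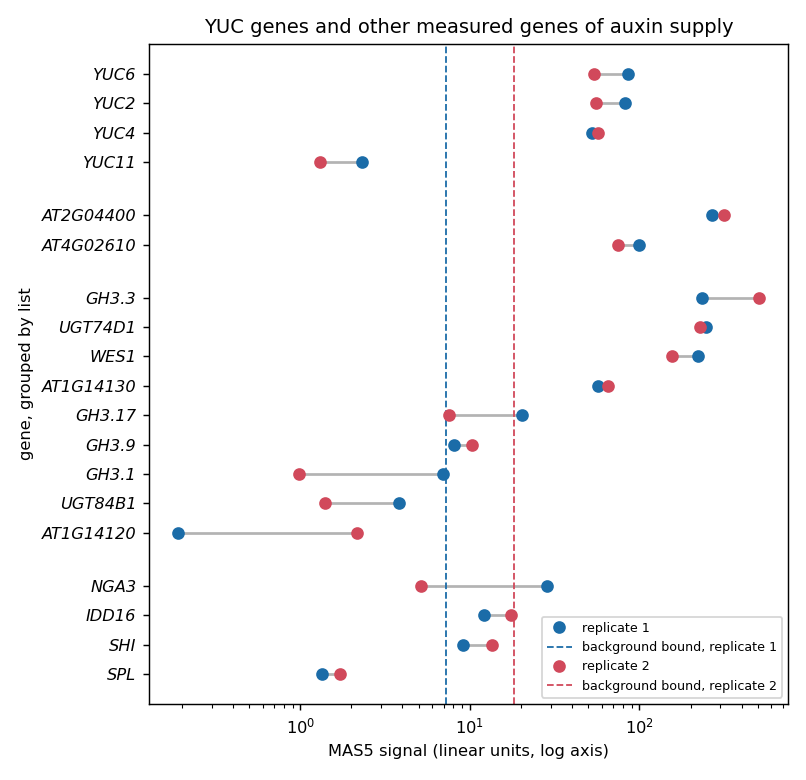
MAS5 signal (log axis) of the *YUC* genes and, below them, of the genes with a named probe set listed for tryptophan synthesis, for conjugation and oxidation of auxin, and as regulators of *YUC* genes, with 1 point per array joined by a line and the bound of each array dashed. *GH3.3* reaches 509.5, *YUC2*, *YUC4* and *YUC6* group between 52.5 and 86.0, and *YUC11* lies with *SPL*, *UGT84B1* and AT1G14120 below both bounds.

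The protein-coding genes next to the *YUC* genes in RefSeq's order had a named probe set in 4 of 8 cases. Beside *YUC11*, *SKP2A*, which encodes an F-box protein of the cell cycle, had a signal of 95.8 and 143.7, and AT1G21440, on the other side, one of 567.2 and 420.0. Next to *YUC6*, AT5G25630 was at 307.6 and 277.5, and next to *YUC2*, AT4G13270 was at 110.5 and 93.2. These 4 neighbours were above the bound in both arrays, as 60.1% of all genes were. The other neighbour of *YUC2* (AT4G13263), that of *YUC6* (*RD22*) and both of *YUC4* had no named probe set.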

How the data were processed

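RNA of 2 leaf margin samples was hybridized to Affymetrix ATH1 arrays, and the authors deposited 1 intensity per probe set, obtained and normalized with MAS5 per the study's methods. R 2.7.2 is named in the submitters' processing notes. The annotation used here names 1 gene for 13513 probe sets and several for 503, while 8794 have no name in it. Of the 1-gene probe sets 13436 were matched to RefSeq (TAIR10.1, for names only). Genes were represented by the probe set of highest mean signal, and percentiles give the share of 1-gene probe sets at or below a signal. Signals were left as deposited, without pseudocount. List genes were matched by locus.

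The genes and lists were chosen with earlier results of these data known, and so was the bound. The text names the *YUC* genes, list members with a named probe set and, for each *YUC* gene above the bound, the 3 genes nearest in log2 signal. The *NGA* genes targeted by the artificial microRNA, the chromosomal neighbours and the genes of the closing section were added after values were seen. Ranking and quantile normalization were tested on simulated data. Alternatives covered the bound, normalization, probe set, ranking, pseudocount and single arrays. Python 3.11.15, numpy 2.4.6, pandas 2.3.3 and matplotlib 3.10.9 were used. With 2 arrays each SD rests on 2 values, which limits the precision.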

Additional observations from a re-analysis of the deposited data

How the results depend on the processing

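No paired analysis was possible because the arrays form 1 group. The count of *YUC* genes above the bound stayed at 3 under each bound, normalization and probe set tried and in each array alone, except under the *B. subtilis* bound, where it was 0. The count for tryptophan synthesis and for conjugation stayed within 1.5 times under all alternatives. For the regulators of *YUC* genes it was 3 with a bound without the root genes, 2 with the 5′ *B. subtilis* bound, which was chosen after the data were seen, and from 0 to 3 over the single arrays. Ranked among all probe sets, the mean percentile was 55.7 for *YUC2*, against 61.3 among those with 1 gene. It was 51.6 for *YUC4*, against 57.3, and 55.9 for *YUC6*, against 61.5. The log2 ratio of *YUC11* was -0.081 with a pseudocount of 16 and 0 when any signal under 18.3 was raised to that value, against -0.83 as deposited. With quantile normalization it was -1.48. The moves of the *YUC11* ratio toward 0 follow from the settings, as both its signals are below 16 and 18.3. The count of 0 under the *B. subtilis* bound follows from that bound, 69.4 in replicate 2, where the highest *YUC* signal was 57.1. The regulator counts rose where the bound was lower, at 3.28 and 3.89 or at 5.82 and 11.3. The median signal was 33.2 and 36.7 over the genes, against 50 over all probe sets, among which the percentiles were lower. The other log2 ratios of *YUC* genes kept their sign under the alternatives tried. Each *YUC* gene has 1 probe set, so the choice of probe set changed nothing, and signals near the bound limit what can be read of *YUC11* and of the regulators.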

Other observations

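A further auxin glucosyltransferase gene and a further flavin monooxygenase gene were picked by name after the values were seen. *IAGLU* (AT4G15550), which encodes a glucosyltransferase that acts on auxin, had a signal of 37.4 in replicate 1 and 85.9 in replicate 2, above the bound in both. *FMO* (AT1G12200), a flavin monooxygenase outside the *YUC* family, was at 26.1 and 19.2, slightly above the bound in replicate 2 and dimmer than *YUC2*, *YUC4* and *YUC6* in both arrays.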
